A study of Saccharomyces pastorianus with 12 samples.

Results

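Peroxisomal beta-oxidation and the carnitine shuttle were followed through 10 gene symbols in lager yeast: PXA1, PXA2, POX1, FOX2, POT1, CTA1, CAT2, CRC1, YAT1 and YAT2. Every row of the deposited count tables whose identifier was one of these symbols, alone or with a copy number behind it, was taken, which gave 22 gene copies of the 11312 copies listed and 10 of the 4738 distinct symbols. POX1 had 1 copy, FOX2 had 3, YAT1 had 4 and each of the other symbols had 2. The copies come from the hybrid genome of Saccharomyces pastorianus, and the tables do not say which parent species a copy belongs to. Copies of a symbol can share reads, which makes each copy's own value uncertain, and for that reason the copies are also summed per symbol.

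The 12 libraries, made from polyA RNA, form 4 groups of 3: SpIB2 on day 5, SpIB2 on day 2, SpIB1 on day 5 and SpIB1 on day 2 of fermentation. SpIB2 and SpIB1 are a pair of lager strains that, per the labels, fermented the same kind of brewing wort at 16 °C for 5 days. The labels name no altered gene and no added agent in any group. The series was designed around the strains' use of maltose and maltotriose, and nothing in the labels ties a replicate to a fermentation of its own. The p-values therefore rest on the spread among these libraries, part of which may be technical.

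In Saccharomyces cerevisiae, from which the roles below are known, fatty acids are broken down only in peroxisomes. The ABC half-transporters Pxa1 and Pxa2 bring long-chain acyl-CoA in, the acyl-CoA oxidase Pox1, the multifunctional enzyme Fox2 and the thiolase Pot1 shorten it step by step, and the peroxisomal catalase Cta1 removes the hydrogen peroxide that Pox1 makes. The acetyl units can leave as acetylcarnitine, made by the carnitine acetyltransferase Cat2 of peroxisomes and mitochondria; Yat1 at the outer mitochondrial membrane and Yat2 in the cytosol carry out the same reaction, and Crc1 carries acetylcarnitine across the inner mitochondrial membrane. Most of these genes are known to be repressed by glucose, and those of the beta-oxidation cycle to be induced by oleate through Oaf1, Pip2 and Adr1.

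The libraries held 5133175 to 7922547 reads, counted over copies with a number in every library. Replicates of a group correlated at a Pearson r of 0.896 to 0.988, and no pair agreed within sampling noise. SpIB2 libraries day 5 replicate 1 and day 2 replicate 3 stood apart from their replicates. The TMM factor, which rescales each library's total, was 0.509 in SpIB2 day 5 replicate 1, 0.868 and 0.885 in the other SpIB2 day 5 libraries and 1.001 to 1.35 in the remaining groups. Markers of sporulation, 1 of the other cell states a yeast culture can hold, summed to 307 to 618 CPM in SpIB2 on day 5 and 142 to 171 CPM in SpIB2 on day 2, against 115 to 128 CPM in SpIB1 on day 5 and 179 to 199 CPM in SpIB1 on day 2. Copies of IME2 and SPO11 carried most of the SpIB2 day 5 sum, at 252 CPM for IME2_2 and 102 CPM for SPO11_3, while the defining regulators IME1 and NDT80 lay between 0.348 and 4.24 CPM in every group mean. Of 19 marker copies tested, 2 were higher and 5 lower on day 5 than on day 2 in SpIB2 (edgeR adjusted p under 0.05). Over all copies tested, 21.8% were higher and 23.5% lower. IME2_1, for example, had 4.15 CPM on day 5 and 12.7 CPM on day 2. The part of these markers in the results below was not tested.

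All 10 symbols were read in every library. Levels are given as TMM-scaled CPM, counts per 1000000 reads of the rescaled library total, and are not compared between genes because the tables hold no gene lengths. Over all 22 copies, the summed level was 2798.5, 1462 and 1433 CPM in the SpIB2 libraries of day 5 and 522, 781 and 814 CPM in those of day 2. It was 1057, 1291 and 1385 CPM in the SpIB1 libraries of day 5 and 1486, 1332 and 1158 CPM in those of day 2. The SpIB2 days did not overlap, SpIB2 on day 2 lay below all libraries of the other groups, and the SpIB1 days overlapped. These are levels of whole cultures, in which fewer cells using a gene and less RNA of it per cell cannot be told apart.

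**Figure D1:**
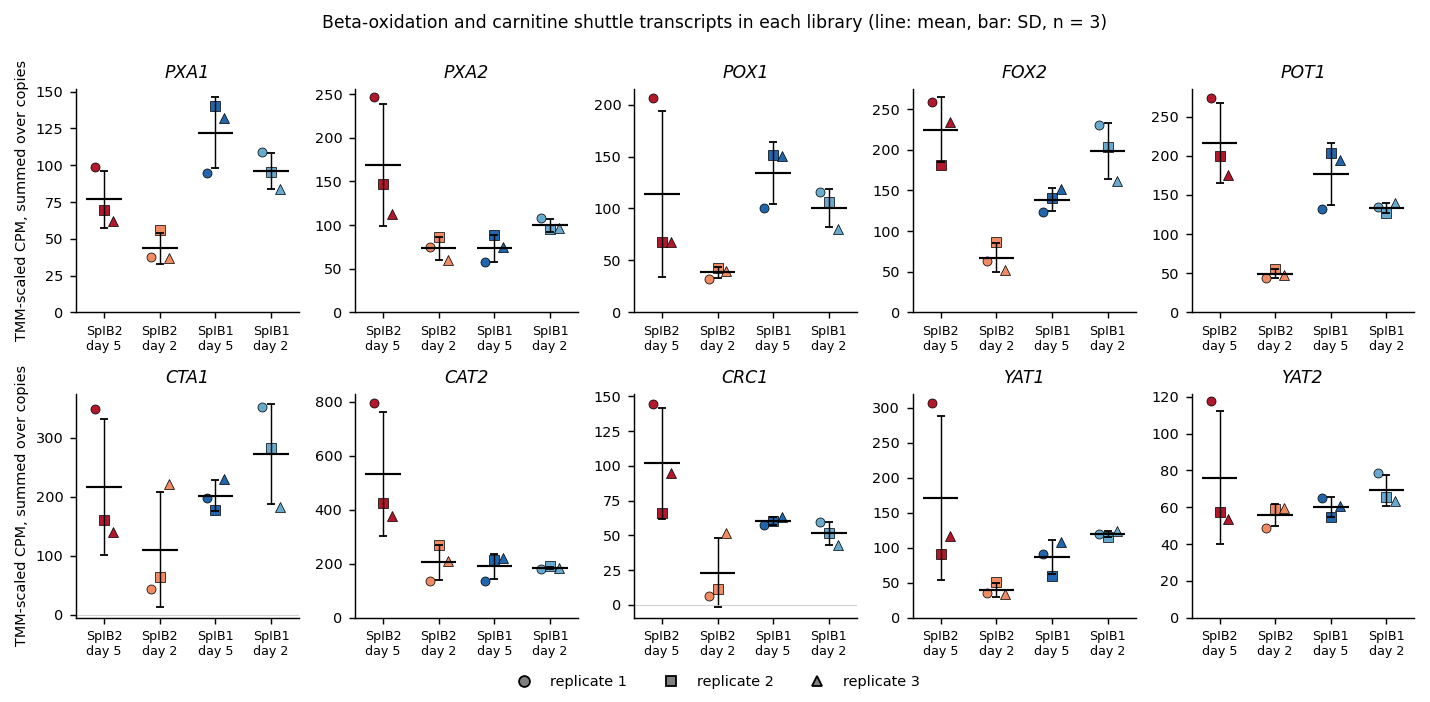
Each panel plots 1 symbol, with TMM-scaled CPM summed over its copies on the vertical axis and the 4 groups of 3 libraries on the horizontal axis; points are libraries, lines are means and bars are SD. SpIB2 on day 2 has the lowest mean for every symbol except CAT2 (205 CPM, with 190 and 184 CPM in SpIB1), although PXA2 is close to level, at 73.5 CPM beside 73.7 CPM in SpIB1 on day 5, and SpIB2 day 5 replicate 1 (circle) is often far above its replicates, as for POX1 at 207 CPM beside 67.8 and 67.8 CPM.

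The comparison of day 5 with day 2 in SpIB2 asks how the pathway changed as fermentation went on in that strain. Of the 22 copies, 18 were higher on day 5 and 0 were lower at an adjusted p under 0.05 (edgeR's quasi-likelihood test, adjusted by Benjamini-Hochberg over all 10659 copies tested), where 21.8% of all copies tested were higher and 23.5% lower. Summed per symbol, 8 of 10 were higher and 0 lower, against 22.2% and 24.4% of all 6171 symbols tested. All 22 copies had passed the filter on low counts, PXA2_2 through SpIB2 alone and FOX2_2 through SpIB1 alone. The median log2 fold change of the copies was 1.43, against -0.10 over all copies tested. The libraries of the days did not overlap for 15 copies, all above on day 5, where 22.2% of all copies lay above without overlap.

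The importers rose least among the symbols called. PXA1 was read at 98.9, 69.5 and 62.3 CPM on day 5 and 37.5, 55.9 and 37.1 CPM on day 2 in SpIB2, with no overlap (log2 fold change 0.75 ± 0.25 SE, edgeR adjusted p = 0.0241). Its partner PXA2 had 247, 147 and 113 CPM on day 5 and 74.9, 86.0 and 59.7 CPM on day 2 (1.12 ± 0.27, edgeR adjusted p = 0.00556). The libraries of the days did not overlap for PXA2 either. The copy PXA2_2 had 64.4 ± 14.5 CPM on day 5 and 17.4 ± 6.003 CPM on day 2 (SD, n = 3 each; log2 fold change 1.88 ± 0.31), and PXA2_1 had 104 ± 56.6 CPM on day 5 and 56.1 ± 7.23 CPM on day 2 (0.89 ± 0.33).

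The enzymes of the cycle rose together. POT1, the thiolase of the last step, had 274, 200 and 175 CPM on day 5 and 44.0, 55.5 and 47.8 CPM on day 2 in SpIB2, well apart (log2 fold change 2.06 ± 0.25, edgeR adjusted p = 7.1e-05). Its copies moved alike, by 2.30 ± 0.28 for POT1_1 and 1.89 ± 0.24 for POT1_2. FOX2, which hydrates the acyl-CoA and oxidises it a second time, had 259, 181 and 234 CPM on day 5 and 63.0, 86.4 and 52.2 CPM on day 2 (1.67 ± 0.25, edgeR adjusted p = 0.000326). The copy FOX2_1 led that rise, with 133, 121 and 180 CPM on day 5 and 34.5, 26.9 and 19.5 CPM on day 2 (2.42 ± 0.27, edgeR adjusted p = 4.83e-05). FOX2_3 changed less (0.96 ± 0.36, edgeR adjusted p = 0.0438), and FOX2_2 was barely read, with 6 to 19 reads per library on day 5 and 4 to 7 on day 2. POX1, the oxidase of the first step, was at 207, 67.8 and 67.8 CPM on day 5 and 32.3, 43.1 and 40.2 CPM on day 2 in SpIB2. All day 5 values of POX1 lay above those of day 2, but replicate 1 stood far above the other libraries of day 5 (log2 fold change 1.56 ± 0.40, edgeR adjusted p = 0.0074, and 0.81 without that library, adjusted p = 0.0256).

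The catalase gene CTA1 did not pass the test. It had 349, 161 and 141 CPM on day 5 and 43.7, 65.1 and 222 CPM on day 2 in SpIB2, so the days overlapped (log2 fold change 0.88 ± 0.52, edgeR adjusted p = 0.174). The overlap came from day 2 replicate 3 alone. Without that library the log2 fold change of CTA1 was 1.91 (edgeR adjusted p = 0.00374), and CTA1_1 and CTA1_2 passed too, at 1.77 and 2.80.

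Among the shuttle genes, CRC1 and YAT1 rose most. The carrier gene CRC1 had 145, 66.0 and 94.7 CPM on day 5 and 6.32, 11.2 and 51.5 CPM on day 2 in SpIB2, with no overlap (log2 fold change 2.05 ± 0.56, edgeR adjusted p = 0.00972). Here, too, day 2 replicate 3 was far above its replicates, and without it the change was 3.46. The copy CRC1_1 had 90.3, 47.8 and 61.9 CPM on day 5 and 3.43, 7.33 and 13.4 CPM on day 2 (3.03 ± 0.39, edgeR adjusted p = 0.000118), the largest change among the 22 copies in this comparison. It was 3.62 without day 2 replicate 3. CRC1_2 had 35.1 ± 18.1 CPM on day 5 and 15.0 ± 20.1 CPM on day 2 and was not called (edgeR adjusted p = 0.191), but was at 3.36 without that library (edgeR adjusted p = 0.000801).

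The outer-membrane transferase gene YAT1 had 306, 90.9 and 117 CPM on day 5 and 35.0, 51.0 and 33.2 CPM on day 2 in SpIB2. The groups did not overlap (log2 fold change 2.02 ± 0.39, edgeR adjusted p = 0.00135), the change was 1.34 without day 5 replicate 1, and all 4 copies of YAT1 were called. YAT1_2 and YAT1_3 had the largest fitted changes of the 4, at 2.68 ± 0.60 and 2.59 ± 0.57, but replicate 1 held 99.2 CPM of YAT1_2 on day 5 beside 15.4 and 16.7 CPM in its replicates. Without it their changes were 1.25 and 1.33 (edgeR adjusted p = 0.00938 and 0.00891). YAT1_4 was steadier between the libraries, with 79.7, 46.1 and 58.3 CPM on day 5 and 15.3, 27.2 and 13.1 CPM on day 2 (1.72 ± 0.28, edgeR adjusted p = 0.000523), and the low copy YAT1_1 changed by 1.37 ± 0.31.

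CAT2, the transferase gene of peroxisomes and mitochondria, had 796, 423 and 375 CPM on day 5 and 136, 267 and 211 CPM on day 2 in SpIB2, with no overlap (log2 fold change 1.30 ± 0.34, edgeR adjusted p = 0.0078). The cytosolic YAT2 did not pass the test as a sum, at 118, 57.2 and 53.5 CPM on day 5 and 48.9, 59.2 and 59.5 CPM on day 2, which overlapped (0.36 ± 0.26, edgeR adjusted p = 0.272). Its copies differed, YAT2_1 being at -0.11 ± 0.21 and YAT2_2 at 1.06 ± 0.37 (edgeR adjusted p = 0.0333). YAT2_2 was at 0.36 without day 5 replicate 1 (edgeR adjusted p = 0.287).

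**Figure D2:**
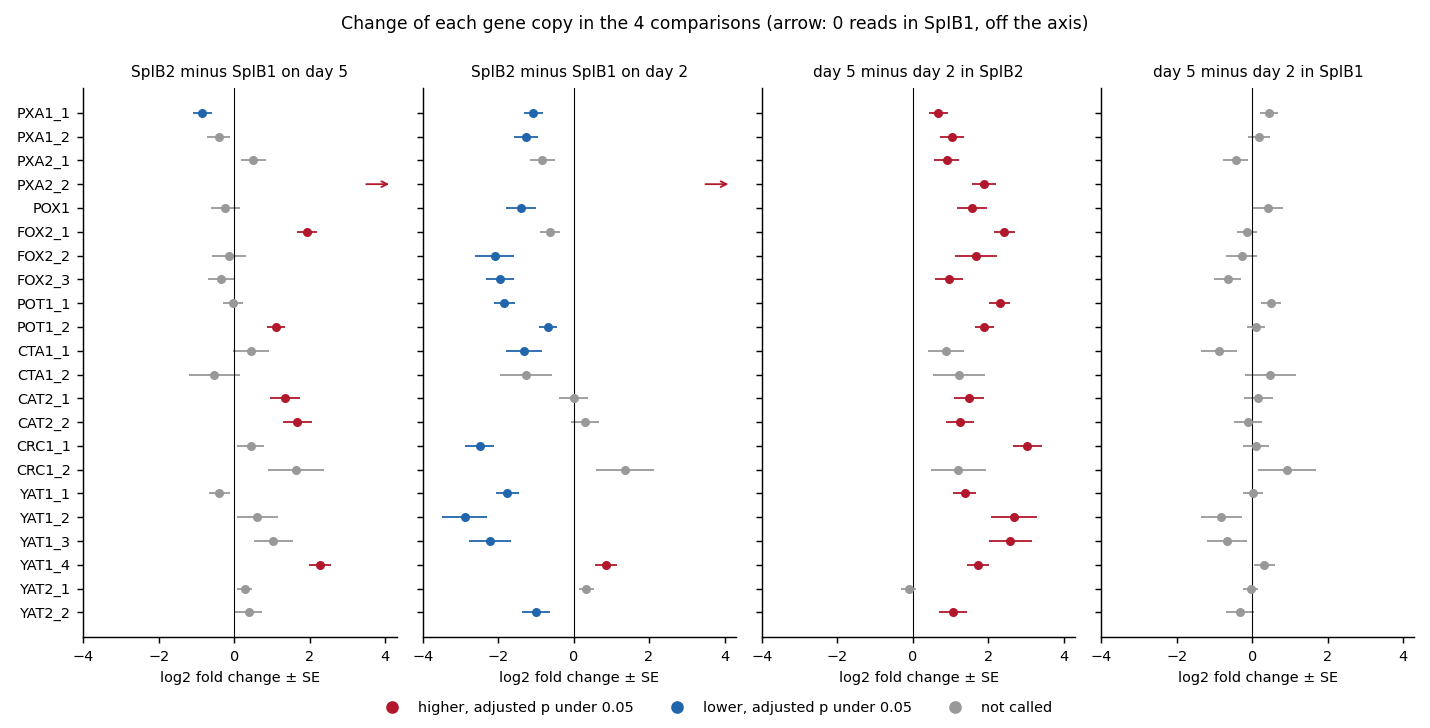
Each row is 1 of the 22 gene copies and each panel 1 comparison, with the log2 fold change and its standard error on the horizontal axis; red and blue points passed an adjusted p under 0.05 as higher and lower, grey points did not, and arrows mark PXA2_2, which had 0 reads in SpIB1. In the third panel, day 5 against day 2 in SpIB2, 18 copies are red and 0 blue, and in the fourth, the same days in SpIB1, 0 are coloured; PXA2_2 has no point there.

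The count of 18 was smaller under some settings. It was 11 without SpIB2 day 5 replicate 1, 11 without SpIB2 day 2 replicate 1 and 14 without both SpIB2 libraries that stood apart. The shares over all copies were not counted in those fits. Library totals in place of TMM shifted the median of all copies in this comparison by -0.44 and left 11 copies higher and 1 lower, where 12.3% of all copies were then higher and 33.9% lower. The calls of 10 copies held in all alternatives tried: CRC1_1, FOX2_1, POT1_1, POT1_2, POX1, PXA2_2 and YAT1_1 to YAT1_4. The calls of FOX2_3, PXA1_1, PXA1_2, PXA2_1, CAT2_2, FOX2_2 and YAT2_2 were each lost on leaving out 1 of 2 to 7 single libraries, among them SpIB2 day 5 replicate 1 and SpIB2 day 2 replicate 1 for each of these copies, with adjusted p of 0.0513 to 0.287. The call of the PXA1 sum was lost without SpIB2 day 5 replicate 1, day 2 replicate 1 or day 2 replicate 3 (adjusted p 0.0725 to 0.0836).

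In SpIB1, the comparison of day 5 with day 2 called 0 copies higher and 0 lower of the 21 that had reads, where 0.863% of all copies tested were higher and 2.61% lower (edgeR). An unadjusted p under 0.05 was reached by 0 copies in edgeR, 0 in limma voom and 2 in DESeq2. For the sums, 0 of 10 symbols were called in either direction, where 0.891% of all symbols were higher and 2.98% lower; 0 had an unadjusted p under 0.05 in edgeR, 0 in limma voom and 1 in DESeq2. Their median log2 fold change over the 21 copies was 0.02, against 0 over all copies tested. Libraries of the days did not overlap for 1 copy above and 5 below on day 5, where 18.6% and 20.2% of all copies lay so.

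POT1, for example, had 132, 204 and 194 CPM on day 5 and 134, 127 and 139 CPM on day 2 in SpIB1, which overlapped (log2 fold change 0.41 ± 0.23, edgeR adjusted p = 0.371). FOX2 had 123, 141 and 152 CPM on day 5 and 230, 203 and 161 CPM on day 2, all day 5 libraries being lower (-0.51 ± 0.25, edgeR adjusted p = 0.278). CRC1 varied little in this strain, at 57.7, 60.1 and 63.0 CPM on day 5 and 59.7, 51.8 and 43.2 CPM on day 2 (0.23 ± 0.53, edgeR adjusted p = 0.867). The shared estimate of the spread enters these errors. Fitted on the SpIB1 libraries alone, CTA1_1, FOX2_3 and YAT1_2 were called lower on day 5, 3 of 21, where 9.96% of all copies were then higher and 10.6% lower.

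The difference between the day effects of the strains was tested directly. Of the 22 copies, 10 had a higher day effect in SpIB2 than in SpIB1 and 0 a lower one, where 14.6% of all copies tested were higher and 11.9% lower; over the 21 copies with reads in both strains, the median difference was 1.38 on the log2 scale, against -0.07 over all copies. Of the sums, FOX2, POT1, PXA2 and YAT1 passed, 4 of 10, where 15.8% of all symbols were higher and 12.5% lower. Because PXA2_2 was unread in SpIB1, the PXA2 sum compares different copies in the strains. FOX2_1 had the smallest adjusted p of the copies, with a day effect larger by 2.56 ± 0.37 in SpIB2 (edgeR adjusted p = 0.000925). CRC1_1 followed at 2.93 ± 0.52 (edgeR adjusted p = 0.00262) and POT1_2 at 1.79 ± 0.33 (edgeR adjusted p = 0.00315).

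The calls of CRC1_1, FOX2_1, POT1_1, POT1_2, YAT1_2 and YAT1_3 held in all alternatives tried, those of the YAT1 copies with smaller values, at 2.05 and 1.98 without SpIB2 day 5 replicate 1 against 3.50 and 3.26 with it. The other 4, FOX2_3, PXA2_1, YAT1_1 and YAT1_4, were each lost on leaving out 1 of 5 to 10 single libraries of either strain (adjusted p 0.0501 to 0.11). The count fell to 6 without SpIB1 day 5 replicate 1 or replicate 2, where the shares over all copies were not counted. Without SpIB2 day 2 replicate 3, CTA1 and CRC1 passed as sums, at 2.34 and 3.23 (edgeR adjusted p = 0.0103 and 0.000693), and so did the copies CRC1_2, CTA1_1 and CTA1_2. The sum of CAT2 passed without SpIB2 day 2 replicate 2 or SpIB2 day 5 replicate 3, at 1.44 to 1.49, and the copies CAT2_1, CAT2_2, FOX2_2 and YAT2_2 passed without 1 to 3 single SpIB2 libraries (adjusted p 0.0162 to 0.0498).

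On day 5, calls between the strains were no more frequent among the members than over all copies or symbols. Of the 22 copies, 6 were higher in SpIB2 and 1 lower, where 29.9% of all copies tested were higher and 26.5% lower. The 6 include PXA2_2, which had 0 reads in SpIB1 and passed the filter through SpIB2 alone, so that its direction was set by the filter. Of the sums, CAT2, FOX2 and PXA2 were higher and PXA1 lower, 3 and 1 of 10, where 28.3% and 26.7% of all symbols were. The PXA2 sum includes PXA2_2, and PXA2_1, the copy read in both strains, was not called (0.50 ± 0.33, edgeR adjusted p = 0.212). CAT2 had 796, 423 and 375 CPM in SpIB2 and 137, 213 and 219 CPM in SpIB1 on day 5, well apart (log2 fold change 1.41 ± 0.34, edgeR adjusted p = 0.00357). FOX2 had 259, 181 and 234 CPM in SpIB2 and 123, 141 and 152 CPM in SpIB1 (0.62 ± 0.25, edgeR adjusted p = 0.0457). The importer gene PXA1 went the other way, with 98.9, 69.5 and 62.3 CPM in SpIB2 and 94.8, 140 and 132 CPM in SpIB1, which overlapped in 1 library of each (-0.75 ± 0.24, edgeR adjusted p = 0.0191).

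Within FOX2 the copies split on day 5. FOX2_1 had 133, 121 and 180 CPM in SpIB2 and 36.5, 38.3 and 39.6 CPM in SpIB1 (1.92 ± 0.27, edgeR adjusted p = 5.08e-05). FOX2_3 had 120, 58.7 and 52.0 CPM in SpIB2 and 83.1, 99.0 and 109 CPM in SpIB1, which overlapped (-0.35 ± 0.36, edgeR adjusted p = 0.429). YAT1_4 was the copy of YAT1 that was called, at 79.7, 46.1 and 58.3 CPM in SpIB2 and 12.4, 12.1 and 13.7 CPM in SpIB1 (2.26 ± 0.29, edgeR adjusted p = 2.64e-05), while the other 3 copies were not called. POT1_2 was higher in SpIB2 (1.10 ± 0.23, edgeR adjusted p = 0.00125), and POT1_1 was at -0.03 ± 0.27.

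The day 5 comparison moved with SpIB2 day 5 replicate 1 and with the scaling. Libraries of the strains did not overlap for 7 copies above and 1 below in SpIB2, where 31.2% and 30.8% of all copies lay so. The median log2 fold change of the copies was 0.44, against 0.03 over all copies, and -0.13 without that library, when 6 copies were higher and 5 lower. The shares and the median over all copies were not taken without that library. POX1 was then lower in SpIB2 (-0.99, edgeR adjusted p = 0.00666), as were PXA1_2, FOX2_3 and YAT1_2, at -0.82 each, YAT1_2 having been at 0.61 with it. With library totals in place of TMM, which shifted the median of all copies by -0.75, the members' median was -0.44, with 4 copies higher and 9 lower, where 14.1% of all copies were then higher and 45.6% lower. The calls of CAT2_2, FOX2_1 and YAT1_4 held in all alternatives. That of PXA2_2 held as well, but its direction was set by the filter. CAT2_1 was not called without SpIB1 day 5 replicate 1 (adjusted p = 0.0609), PXA1 as a sum without SpIB1 day 5 replicate 2, SpIB2 day 5 replicate 2 or SpIB2 day 5 replicate 3 (0.0542 to 0.0684), and FOX2 as a sum without any 1 of 9 libraries (0.0548 to 0.166). The sum of YAT1 passed without SpIB2 day 5 replicate 2 or replicate 3, at 1.10 to 1.18, as did YAT1_3, at 1.39 to 1.43. CRC1_2 passed without any 1 SpIB2 day 2 library at an unchanged 1.64, and the CRC1 sum, at 0.67, without SpIB2 day 2 replicate 3.

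On day 2 most members were lower in SpIB2. Of the 22 copies, 13 were lower and 2 higher, where 16% of all copies tested were lower and 19.3% higher, and of the sums 5 were lower and 0 higher of 10, where 13% and 14.9% of all symbols were. Among the 2 higher was PXA2_2, whose direction was again set by the filter. Among the 13 lower was FOX2_2, which passed the filter through SpIB1 alone, so that its direction was not free of the filter. The median log2 fold change was -1.16, against 0.04 over all copies. Libraries did not overlap for 14 copies below and 3 above in SpIB2, where 25.8% and 26.8% of all copies lay so. Scaling moved little here, library totals shifting the median of all copies by -0.04.

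FOX2 and POT1 had the smallest adjusted p of the sums on day 2. FOX2 had 63.0, 86.4 and 52.2 CPM in SpIB2 and 230, 203 and 161 CPM in SpIB1, with no overlap (log2 fold change -1.56 ± 0.25, edgeR adjusted p = 0.000847). POT1 had 44.0, 55.5 and 47.8 CPM in SpIB2 and 134, 127 and 139 CPM in SpIB1 (-1.44 ± 0.24, edgeR adjusted p = 0.00107). POX1 and PXA1 were lower too, at -1.38 ± 0.37 and -1.14 ± 0.25 (edgeR adjusted p = 0.0156 and 0.00507). In the cycle and its import, then, PXA2 was the symbol not called among 5, at 74.9, 86.0 and 59.7 CPM in SpIB2 and 108, 94.99 and 96.3 CPM in SpIB1 (-0.44 ± 0.27, edgeR adjusted p = 0.241). That sum includes PXA2_2, unread in SpIB1, and PXA2_1 by itself was at -0.83 ± 0.33 (edgeR adjusted p = 0.0642).

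Of the shuttle, YAT1 was lower on day 2, with 35.0, 51.0 and 33.2 CPM in SpIB2 and 119, 115 and 124 CPM in SpIB1 (-1.58 ± 0.38, edgeR adjusted p = 0.00933). Its copies did not move as one, YAT1_1, YAT1_2 and YAT1_3 being lower in SpIB2 (-1.76 ± 0.30, -2.89 ± 0.60 and -2.22 ± 0.56) and YAT1_4 higher (0.87 ± 0.29, edgeR adjusted p = 0.0311). CRC1_1 had 3.43, 7.33 and 13.4 CPM in SpIB2 and 54.7, 42.0 and 40.3 CPM in SpIB1, far apart (-2.49 ± 0.38, edgeR adjusted p = 0.000287). CRC1 as a sum was at -1.15 ± 0.55 and not called, and was at -2.55 without SpIB2 day 2 replicate 3 (edgeR adjusted p = 0.000333). CAT2 had 136, 267 and 211 CPM in SpIB2 and 180, 190 and 184 CPM in SpIB1, which overlapped (0.16 ± 0.33, edgeR adjusted p = 0.749).

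Of the 15 calls among copies on day 2, 10 held in all alternatives: CRC1_1, FOX2_2, FOX2_3, POT1_1, PXA1_1, PXA1_2, PXA2_2, YAT1_1, YAT1_2 and YAT1_3. The direction of PXA2_2 among them was set by the filter, and that of FOX2_2, which passed through SpIB1 alone, was not free of it. POX1 was lost on leaving out replicate 1 of day 2 of either strain (adjusted p 0.0587 to 0.0637). POT1_2, YAT1_4, YAT2_2 and CTA1_1 were each lost without 1 of 4 to 10 single libraries (adjusted p 0.0503 to 0.177). CTA1 as a sum, at -1.30 ± 0.52 with all libraries, passed without SpIB2 day 2 replicate 3, at -2.32 (edgeR adjusted p = 0.0022), and without SpIB2 day 5 replicate 1. FOX2_1 passed without SpIB2 day 2 replicate 1 or SpIB2 day 5 replicate 1, at -0.85 to -0.62, PXA2_1 without SpIB2 day 5 replicate 1 or replicate 3, at -0.83 to -0.81, and CTA1_2 without SpIB2 day 2 replicate 3, at -2.85.

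The copies of a symbol were read in different proportions in the strains. PXA2_2 had 0 reads in all 6 SpIB1 libraries, against 223 to 306 reads per library in SpIB2 on day 5 and 73 to 133 on day 2. If 3 reads are allowed to all SpIB1 libraries of a day together, it was at least 565-fold higher in SpIB2 on day 5 and at least 118-fold higher on day 2; that limit covers counting error only. FOX2_1 held 65.0 ± 12.9% of the FOX2 reads in SpIB2 on day 5 and 41.1 ± 12.2% in SpIB2 on day 2, against 27.6 ± 1.81% in SpIB1 on day 5 and 21.3 ± 2.72% in SpIB1 on day 2. YAT1_4 held 42.3% of the YAT1 reads in SpIB2 on day 5 and 45.5% on day 2, against 15.4% and 8.501% in SpIB1 on those days.

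POT1_2 held 36.9 ± 1.18% and 43.3 ± 4.07% of POT1 reads in SpIB2 on day 5 and day 2, against 21.3 ± 2.24% and 25.9 ± 2.26% in SpIB1 on those days, with no overlap between the strains. CRC1_2 held 33.2 ± 5.14% and 51.4 ± 20.4% of CRC1 reads in SpIB2 on day 5 and day 2, against 18.4 ± 3.26% and 11.3 ± 6.64% in SpIB1 on those days, again with no overlap between the strains. CTA1_2 held 25.8 ± 6.52% of CTA1 reads in SpIB2 and 43.3 ± 6.44% in SpIB1 on day 5, and 19.4 ± 6.74% in SpIB2 and 22.3 ± 3.06% in SpIB1 on day 2, when the strains overlapped. YAT2_1 held 46.2 ± 9.97% of YAT2 reads in SpIB2 and 45.05 ± 1.54% in SpIB1 on day 5, and 63.7 ± 7.45% in SpIB2 and 40.4 ± 2.13% in SpIB1 on day 2, with overlap on day 5 and none on day 2. For PXA1 and CAT2 the day 5 shares also overlapped between the strains. PXA1_1 held 58.1 ± 8.22% in SpIB2 and 63.7 ± 3.31% in SpIB1 on day 5, and CAT2_1 held 52.1 ± 1.07% in SpIB2 and 56.7 ± 6.58% in SpIB1 on day 5. How reads that match several copies were assigned is not known here, and a copy that is absent from a strain's genome and a copy that is silent cannot be told apart.

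**Figure D3:**
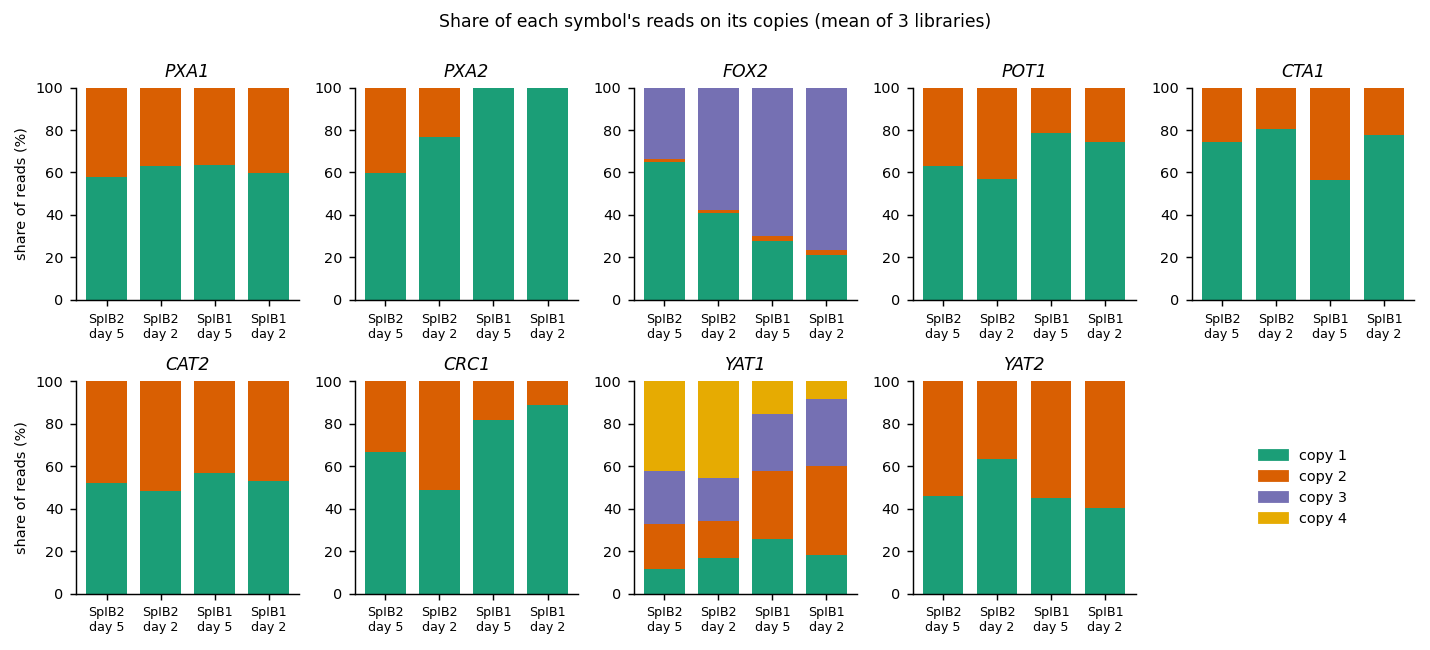
Each panel shows 1 symbol with several copies; stacked bars give the mean share of its reads on each copy (percent, 3 libraries) in the 4 groups. The bar of PXA2 is a single colour in SpIB1, where copy 2 had 0 reads, and FOX2 copy 1 runs from 65.0% in SpIB2 on day 5 to 21.3% in SpIB1 on day 2.

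Genes of auxiliary enzymes that work beside the cycle were called in both directions. Of 25 copies of auxiliary enzymes, 3 were higher and 6 lower on day 5 than on day 2 in SpIB2, beside 21.8% and 23.5% of all copies, with 2 to 4 higher and 4 to 6 lower on leaving out single libraries and 10 lower with library totals. SPS19_1, a copy of the dienoyl-CoA reductase gene for unsaturated fatty acids, rose with the members, to 37.1 ± 19.1 CPM on day 5 against 5.91 ± 1.16 CPM on day 2 (log2 fold change 2.64 ± 0.36, edgeR adjusted p = 0.000162). Both copies of ANT1, the peroxisomal adenine nucleotide carrier that supplies ATP for acyl-CoA formation, fell in SpIB2, ANT1_2 to 12.01 ± 4.16 CPM on day 5 against 66.2 ± 30.4 CPM on day 2 (-2.44 ± 0.34, edgeR adjusted p = 0.000192). Between the strains, 6 of the 25 copies were higher in SpIB2 and 8 lower on day 5, beside 29.9% and 26.5% of all copies. On day 2, 2 were higher and 7 lower, beside 19.3% and 16%. IDP3_2, a copy of the peroxisomal isocitrate dehydrogenase gene, was higher in SpIB2 than in SpIB1 on both days, at 1.61 ± 0.24 on day 5 and 1.29 ± 0.24 on day 2. TES1_2, of the peroxisomal thioesterase, was lower, at -1.83 ± 0.22 on day 5 and -1.62 ± 0.22 on day 2.

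Of 12 copies of regulators, 5 were higher and 2 lower on day 5 than on day 2 in SpIB2, beside 21.8% and 23.5% of all copies, the 2 becoming 1 without any 1 of 9 libraries. ADR1, an activator of peroxisomal genes, had 115, 52.2 and 29.7 CPM of ADR1_1 on day 5 and 12.1, 13.3 and 19.4 CPM on day 2, with no overlap (2.12 ± 0.40, edgeR adjusted p = 0.00113). CAT8_1, of an activator of genes for growth on carbon sources other than sugar, had 540, 163 and 106 CPM on day 5 and 15.0, 22.2 and 8.92 CPM on day 2 (4.13 ± 0.55, edgeR adjusted p = 0.000148). Without day 5 replicate 1, the changes were 1.445 for ADR1_1 and 3.13 for CAT8_1. Between the strains, 4 of the 12 copies were higher in SpIB2 and 3 lower on day 5, beside 29.9% and 26.5% of all copies. On day 2, 1 was higher and 5 lower, beside 19.3% and 16%. PIP2_1 and OAF1_1, copies of the genes for the pair of oleate response factors, were lower in SpIB2 than in SpIB1 on both days. With SIP4_1 they were the 3 called lower on day 5, so no other copy of PIP2 or OAF1 was called lower then. PIP2_1 had 18.5 ± 4.31 CPM in SpIB2 and 50.6 ± 1.38 CPM in SpIB1 on day 5 (-1.46 ± 0.22, edgeR adjusted p = 9.23e-05), and OAF1_1 had 41.2 ± 14.1 CPM in SpIB2 and 106 ± 6.64 CPM in SpIB1 on day 5 (-1.37 ± 0.26).

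Of 17 copies of genes that use acetyl units or take up carnitine, 10 were higher, 0 lower and 7 not called on day 5 against day 2 in SpIB2, beside 21.8% and 23.5% of all copies, with 8 to 10 higher on leaving out single libraries. In SpIB2 against SpIB1 on day 5, 11 were higher and 2 lower, beside 29.9% and 26.5% of all copies, and 6 and 4 with library totals. AGP2_1, of the membrane protein needed for carnitine uptake, had 313, 125 and 115 CPM on day 5 and 20.0, 29.5 and 19.4 CPM on day 2 in SpIB2 (3.002 ± 0.41, edgeR adjusted p = 0.000162). AGP2_2 rose likewise, to 252 ± 130 CPM on day 5 against 42.9 ± 8.87 CPM on day 2 (2.55 ± 0.35). ACS1_1, of an acetyl-CoA synthetase, was at 280 ± 182 CPM on day 5 and 36.3 ± 15.7 CPM on day 2 (2.94 ± 0.52, edgeR adjusted p = 0.000743). Without day 5 replicate 1, AGP2_1 was at 2.38, AGP2_2 at 2.05 and ACS1_1 at 2.28, each still called. On day 5 and day 2 in SpIB2, MLS1_1 had 49.5 and 55.1 CPM and MLS1_2 14.4 and 16.3 CPM. ICL1_1 had 49.7 and 44.2 CPM and ICL1_2 9.24 and 2.67 CPM. In SpIB1, 2 of the 17 were higher on day 5, beside 0.863% of all copies. These were MLS1_1 (1.59 ± 0.31, edgeR adjusted p = 0.0109) and ICL1_2 (1.499 ± 0.31, edgeR adjusted p = 0.0149). Their calls were lost without 1 of 3 and 1 of 4 single libraries.

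Of 52 copies of peroxisome biogenesis genes, 17 were higher and 7 lower on day 5 than on day 2 in SpIB2, beside 21.8% and 23.5% of all copies. With library totals 5 were higher and 10 lower, beside 12.3% and 33.9%. PEX2_2, of a ubiquitin ligase of the import machinery, had 1238 ± 533 CPM on day 5 and 127 ± 29.2 CPM on day 2 in SpIB2 (3.28 ± 0.39, edgeR adjusted p = 6.59e-05), against 64.1 ± 2.51 CPM in SpIB1 on day 5. PEX3_1 and PEX3_2, copies of the gene for a factor that inserts peroxisomal membrane proteins, rose by 2.19 ± 0.29 and 2.66 ± 0.40 in SpIB2, PEX3_2 being at 2.05 without day 5 replicate 1. Among 17 copies of genes for lipases that release fatty acids and sterols from lipid droplets, 3 were higher and 4 lower, beside the same shares of all copies, with 1 to 4 higher and 2 to 6 lower on leaving out single libraries and 1 higher and 6 lower with library totals. TGL3, of a triacylglycerol lipase, had 594, 254 and 332 CPM on day 5 and 60.3, 97.4 and 64.3 CPM on day 2 in SpIB2 (2.41 ± 0.35, edgeR adjusted p = 0.000249). YEH1_1 and YEH1_2 of the same list fell in SpIB2, at -2.13 ± 0.54 and -1.55 ± 0.57 (edgeR adjusted p = 0.0067 and 0.0382). The call of YEH1_2 was lost without any 1 of 5 libraries. Both copies also fell in SpIB1, at -2.90 ± 0.55 and -3.18 ± 0.60, calls lost without SpIB1 day 5 replicate 2 or replicate 3.

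**Figure D4:**
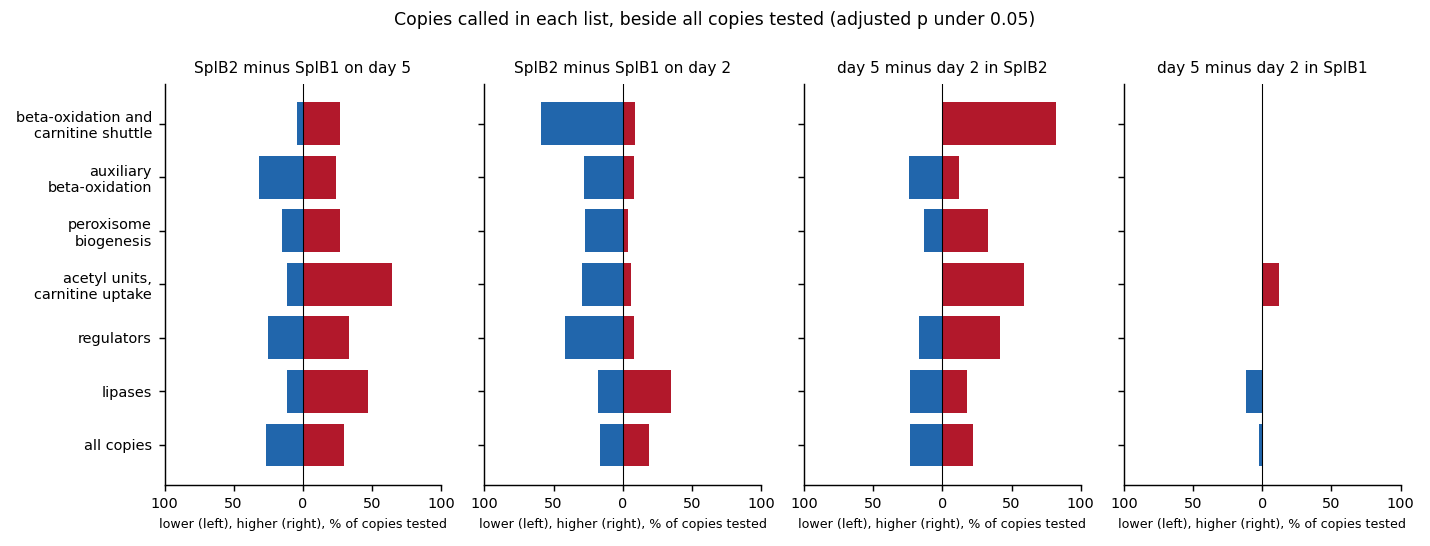
Bars give the percentage of copies called higher (red, right) and lower (blue, left) at an adjusted p under 0.05 in each list and over all copies tested, in 4 panels for the comparisons. On day 5 against day 2 in SpIB2, the 22 copies of beta-oxidation and the carnitine shuttle have no blue bar, while 21.8% of all copies are higher and 23.5% lower.

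Across the 12 libraries, the member symbols varied together to different degrees. As a description over libraries that share their depth and scaling, each symbol's log2 CPM was compared with the mean of the other members. Pearson's r was highest for YAT1 (0.905), POT1 (0.879), POX1 (0.853) and FOX2 (0.850) and lowest for CAT2 (0.521). Of 4580 other symbols, FPK1 (r = 0.967), FLC2 (0.965), RIB1 (0.963), TOP3 (0.962) and PRP45 (0.960) were most like the members' mean profile. Without the 2 SpIB2 libraries that stood apart, their r was 0.955, 0.956, 0.937, 0.950 and 0.939. FPK1 had mean levels of 344 CPM in SpIB2 on day 5 and 65.7 CPM in SpIB2 on day 2, against 199 and 227 CPM in SpIB1 on those days.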

How the data were processed

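Whole-number read counts per gene copy were deposited by the authors, 1 table per library, not normalised. The submitters' processing notes list Trimmomatic 0.38, STAR 2.7.3a, HTSeq 0.11.1 and, with no step given for any of them, edgeR 3.34.0. Build, annotation, strandedness and the handling of multi-mapping reads: not given in the sources used here. Text stands in place of a number in 1 library for 35 copies, which are no members and were left out.

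Counts were tested in R 4.3.3 with edgeR 4.0.16 (its expression filter, TMM scaling, robust quasi-likelihood fit of 4 group means to the 12 libraries, leaving 8 residual degrees of freedom). Copies, and sums over a symbol's copies, were fitted separately, so POX1 has slightly different values in each. Standard errors come from the F statistic. A call is a Benjamini-Hochberg adjusted p under 0.05 over all copies or symbols. CPM values are TMM-scaled means ± SD. A floor is 3 reads and covers counting error only.

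Alternatives were median-ratio size factors, library totals, no filter, a filter at a mean count of 50, DESeq2 1.42.0, limma 3.58.1 (voom), a 2-fold threshold, a replicate block, only the groups compared, the cells with text filled with an assumed number, which changed no call of a member, and each library, or both SpIB2 libraries that stood apart, left out. The alternatives for the other lists, and for the likeness to the members, were added after seeing the data. Members and lists were chosen with earlier results of these data known. Of other genes, up to 4 copies per list and comparison could be named, those with the smallest adjusted p, 10 CPM or more on average in whichever group was higher, and no overlap of libraries; likeness was ranked by Pearson's r. No sequence was printed and no promoter searched, since no reference was used here.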

Additional observations from a re-analysis of the deposited data

Results flagged for a closer look

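The day effect (day 5 minus day 2) differed between the strains by a test of that difference itself (edgeR, adjusted over all copies or symbols) in 10 copies and 4 sums, each larger in SpIB2 than in SpIB1. On the log2 scale the difference was 1.80 for POT1_1, 1.79 for POT1_2 and 1.66 for the POT1 sum. It was 2.56 for FOX2_1, 1.61 for FOX2_3 and 2.18 for the FOX2 sum. PXA2_1 was at 1.33 and the PXA2 sum at 1.55. In the shuttle, CRC1_1 was at 2.93, YAT1_1 at 1.35, YAT1_2 at 3.50, YAT1_3 at 3.26, YAT1_4 at 1.40 and the YAT1 sum at 2.47. The fitted day effects in SpIB1 were below 0, though not called, for FOX2_1, FOX2_3, PXA2_1, YAT1_2 and YAT1_3, at -0.14, -0.65, -0.44, -0.82 and -0.67.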

How the results depend on the processing

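Over the members' copies and sums, 92.4% of 3598 values stayed on their side of the threshold under the alternatives tried (75 of these, not called, had the other sign), 176 lost a call, 92 gained one and 5 changed sign on either side of a call. Those 5 all concern SpIB2 against SpIB1 on day 5: with library totals, YAT2_1 was at -0.54, the FOX2 sum at -0.10 and the YAT2 sum at -0.55, and YAT1_2 was at -0.82 without SpIB2 day 5 replicate 1 (-0.82 to 1.02 over the single libraries left out) and at -0.82 without both SpIB2 libraries that stood apart. The cause was not tested.

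For SpIB2 against SpIB1 on day 5, member copies called lower numbered 1; they were 9 with library totals, 0 at the 2-fold threshold, 6 without both libraries and 1 to 5 leaving out single libraries. Symbols called higher were 0 with library totals, and symbols called lower were 3 with library totals, 0 at the 2-fold threshold, 2 without both libraries and 0 to 2 leaving out single libraries. On day 2, copies called higher were 1 with library totals, limma voom, the 2-fold threshold or the replicate block, and 1 to 2 leaving out single libraries. For day 5 against day 2 in SpIB2, copies called higher were 11 with library totals or only the groups compared and 11 to 18 leaving out single libraries, and 1 was called lower with library totals. In SpIB1, 3 copies were called lower with only the groups compared and 2 without both libraries. For the difference of day effects, copies called higher were 6 with library totals, 15 with DESeq2 and 6 to 12 leaving out single libraries. Shares of all copies called higher and lower were counted for library totals and for the SpIB1 libraries alone, and not for the other alternatives. Where they were not counted, a shift of the members and a shift of all copies cannot be told apart.

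The replicate numbers only name libraries: deviations of same-numbered libraries correlated at -0.554 to 0.456 across 18 pairs, 4 of them over 0.1. With the replicate block, calls over all copies were 5514 in place of 6015 for the strains on day 5, 3145 in place of 3762 on day 2, 4117 in place of 4833 for the days in SpIB2, 206 in place of 370 in SpIB1 and 1947 in place of 2819 for the difference of day effects. A mean count of at least 50 gave no value for FOX2_2. Depth limits FOX2_2, with 4 to 32 reads per library.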
